A study of Mus musculus with 2 samples.

Results

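The genes described here encode heat shock proteins and their co-chaperones, the machinery that folds, refolds and hands on other proteins. They were taken by symbol: Hspa, Hspb, Hspd, Hspe, Hsph and Hsp90 genes, the J-domain genes Dnaja, Dnajb and Dnajc, the Bag genes 1 to 6 and the heat shock factors Hsf, without pseudogene symbols. The rule matched 80 symbols, which gave 79 entries once the near-identical Hspa1a and Hspa1b were added together, and 63 entries averaged 1 FPKM or more over both libraries, of 12429 such genes in all. Genes at or above that average are called measured below. FPKM counts sequenced fragments relative to transcript length and to the mapped total of the library, so that levels can be compared between genes. The tested library was made from colon epithelial cells of C57BL/6 mice with the genotype Pkm2-/-, and the other from wild type C57BL/6 mice. Both groups had 2.5% DSS (dextran sulfate sodium, which damages the gut lining) for 3 days, so DSS is common to both and no library without it was analysed here. How many animals each library pools, and how the allele was made, the sources used here do not say. With 1 library per genotype, no difference below has a replicate check or a p-value.

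Hsp70 proteins bind short unfolded stretches of a client and let go in a cycle driven by ATP. J-domain proteins bring clients and start ATP hydrolysis, and nucleotide exchange factors such as the Hsp110 proteins and the Bag proteins end the cycle. Hsp90 takes over many clients, among them kinases and receptors, while Hsp60 with Hsp10 forms a folding chamber in the mitochondrion. The cytosol, the endoplasmic reticulum (ER) and the mitochondrion each hold their own set. Heat and protein damage raise the cytosolic set through Hsf1, which binds repeats of GAA and TTC in promoters, whereas the ER set answers to the unfolded protein response. In the gut epithelium these proteins are known for their part in resistance to injury.

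The promoters of some genes on which the results turn are shown first. They were chosen because they carry the letters that heat shock factors or the ER stress response are known to use. They run from 250 bases before the annotated start to 50 after it, on the gene's strand, and come from RefSeq on GRCm38.p6. Capitals mark GAANNTTC or TTCNNGAA, pairs of the repeats that heat shock factors bind, both of which read the same on either strand and can overlap each other. The promoters shown do not tell how often higher genes carry a match. Dnajb1, 2.47-fold higher in the Pkm2-/- library, holds no match in this window and is not shown. Nor is Dnajb6, which holds matches and was at 46.0 FPKM in the Pkm2-/- library and 47.9 FPKM in the wild type library. Hspa1a (chr17:34972107-34972406, minus strand) and Hspa1b (chr17:34959189-34959488, minus strand) differ at 4 of these 300 bases, and each holds 1 match that begins 104 bases before the start. Hsph1 (chr5:149636287-149636586, minus strand) holds 3 matches, and Hspe1 (chr1:55087898-55088197, plus strand) holds a run of 3 overlapping ones that begins 89 bases before the start.
Hspa1a: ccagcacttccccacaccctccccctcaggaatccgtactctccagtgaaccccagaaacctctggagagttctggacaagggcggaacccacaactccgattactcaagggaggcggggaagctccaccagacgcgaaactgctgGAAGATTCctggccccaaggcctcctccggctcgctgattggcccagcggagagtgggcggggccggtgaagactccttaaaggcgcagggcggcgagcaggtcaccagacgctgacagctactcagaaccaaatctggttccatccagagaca
Hspa1b: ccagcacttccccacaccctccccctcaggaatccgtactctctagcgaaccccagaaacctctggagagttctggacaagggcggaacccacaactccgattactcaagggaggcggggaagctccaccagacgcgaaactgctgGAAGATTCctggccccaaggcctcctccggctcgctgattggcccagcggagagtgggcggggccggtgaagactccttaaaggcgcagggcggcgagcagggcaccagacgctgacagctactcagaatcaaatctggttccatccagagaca
Hsph1: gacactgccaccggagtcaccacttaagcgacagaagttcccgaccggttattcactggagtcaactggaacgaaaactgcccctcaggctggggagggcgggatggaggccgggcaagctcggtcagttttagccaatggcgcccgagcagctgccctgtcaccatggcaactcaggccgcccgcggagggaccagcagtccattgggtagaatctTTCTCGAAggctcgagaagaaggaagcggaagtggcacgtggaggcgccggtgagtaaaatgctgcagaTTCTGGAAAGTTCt
Hspe1: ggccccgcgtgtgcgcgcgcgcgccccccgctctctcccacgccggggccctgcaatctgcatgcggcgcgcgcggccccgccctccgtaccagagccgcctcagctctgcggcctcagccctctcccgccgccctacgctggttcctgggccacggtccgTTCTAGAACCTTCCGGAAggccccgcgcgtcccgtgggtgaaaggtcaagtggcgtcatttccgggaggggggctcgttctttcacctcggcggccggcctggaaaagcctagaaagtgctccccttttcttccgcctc

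Capitals in the next pair mark the ER stress element, which is CCAAT and CCACG with 9 bases of any kind between them, or ATTGG after CGTGG on the other strand. It was looked up after the values had been seen. Hspa5 (chr2:34771840-34772139, plus strand) holds 1 match, 65 bases before the start. Hsp90b1 (chr10:86705395-86705694, minus strand) holds a match that begins 212 bases before the start and another, on the other strand, that begins 107 bases before it.
Hspa5: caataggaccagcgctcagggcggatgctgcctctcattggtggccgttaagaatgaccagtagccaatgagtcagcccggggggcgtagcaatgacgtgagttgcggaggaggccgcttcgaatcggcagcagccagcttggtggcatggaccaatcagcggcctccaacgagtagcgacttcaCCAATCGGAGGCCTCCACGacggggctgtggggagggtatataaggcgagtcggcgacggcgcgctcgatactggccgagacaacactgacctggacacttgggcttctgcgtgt
Hsp90b1: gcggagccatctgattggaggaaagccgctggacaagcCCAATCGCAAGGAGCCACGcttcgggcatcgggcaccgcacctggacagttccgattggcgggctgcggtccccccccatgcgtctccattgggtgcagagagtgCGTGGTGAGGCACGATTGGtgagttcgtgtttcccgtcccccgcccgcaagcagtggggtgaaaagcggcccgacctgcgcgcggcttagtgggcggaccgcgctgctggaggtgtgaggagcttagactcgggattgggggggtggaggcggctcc

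The depth that the lowest FPKM steps imply was about 20200000 fragments in the Pkm2-/- library and 18700000 in the wild type library, which makes 1 FPKM of a 2 kb transcript worth about 40 fragments in the Pkm2-/- library and 37 in the wild type library. Counting intervals given with a fold are approximate 95% Clopper-Pearson intervals and cover counting error only. Pkm, the targeted gene, stood at 86.2 FPKM in the Pkm2-/- library and 281 FPKM in the wild type library, 3.26-fold lower (3.15 to 3.38). This gene-level value covers the Pkm1 and Pkm2 isoforms together. Defining markers of colon epithelium such as Epcam (712 FPKM in the Pkm2-/- library and 584 FPKM in the wild type library) and Krt8 (2164 FPKM in the Pkm2-/- library and 1814 FPKM in the wild type library) were abundant in both. The 11 epithelial markers summed to 15934 FPKM in the Pkm2-/- library and 16611 FPKM in the wild type library. Car1, at 2701 FPKM in the Pkm2-/- library and 4369 FPKM in the wild type library, was the 1 marker past 1.5-fold, downward. Of all genes, 5.29% were lower by that much. All 10 measured T cell markers were higher by 1.5-fold or more in the Pkm2-/- library, against 4.46% of all genes. Their list of 12 summed to 102 FPKM there and 27.4 FPKM in the wild type library, with Cd3e at 7.52 and 2.05 FPKM. The 11 macrophage and dendritic cell markers summed to 27.3 and 12.9 FPKM in the Pkm2-/- and wild type libraries, but they did not move together. Of the 8 measured, 6 were higher and 2 lower in the Pkm2-/- library. Those lower were Lyz2, at 2.74 FPKM there and 2.97 FPKM in the wild type library, and Cd68, at 1.56 and 1.63 FPKM. Of those higher, Itgam, Itgax, Fcer1g and C1qb were under 1 FPKM in the wild type library. They averaged 1 FPKM only through the Pkm2-/- library, so the threshold itself favoured their direction. Of 4 measured B and plasma cell markers, 3 were higher by 1.5-fold or more, against 4.46% of all genes. Among these 3, Jchain passed the threshold only through the Pkm2-/- library, at 2.15 FPKM there and 0.605 FPKM in the wild type library. Of 6 neutrophil markers, 3 were listed, with Ly6g at 13.1 FPKM in the Pkm2-/- library and 25.4 FPKM in the wild type library. The other listed ones were near the floor, Csf3r at 0.053 FPKM in the Pkm2-/- library and 0.014 FPKM in the wild type library, and Cxcr2 at 0.016 and 0.082 FPKM. S100a8, S100a9 and Mpo were not listed, so Ly6g alone does not stand for neutrophils here. Fibroblast, smooth muscle and endothelial markers summed to at most 2.68 FPKM a list in the Pkm2-/- library and 5.51 FPKM in the wild type library. The part of these cells in the chaperone values was not tested, and in bulk RNA more cells of a type cannot be told apart from more RNA per cell.

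The stress-inducible Hsp70 genes Hspa1a and Hspa1b had the highest ratios of Pkm2-/- over wild type among the measured members, and 10 of the 28 cytosolic members were higher by 1.5-fold or more. Of the 28, 20 had log2 ratios above 0 and 8 below, while 58.8% of all genes lay above 0. The mitochondrial chaperonin genes Hspd1 and Hspe1 also passed 1.5-fold, and no ER member did. Of the 63 members, 4 were at least 2-fold higher on the log2(FPKM + 1) scale, against 1.42% of all genes, and all 4 were cytosolic. At a threshold of 1.5-fold, 12 members were higher, against 4.46% of all genes, and 1 was lower, against 5.29%. No member was at least 2-fold lower on the log2(FPKM + 1) scale, a threshold that 1.90% of all genes passed. The median log2 ratio of Pkm2-/- over wild type was 0.11 over all members and 0.06 over all 12429 genes.

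**Figure D1:**
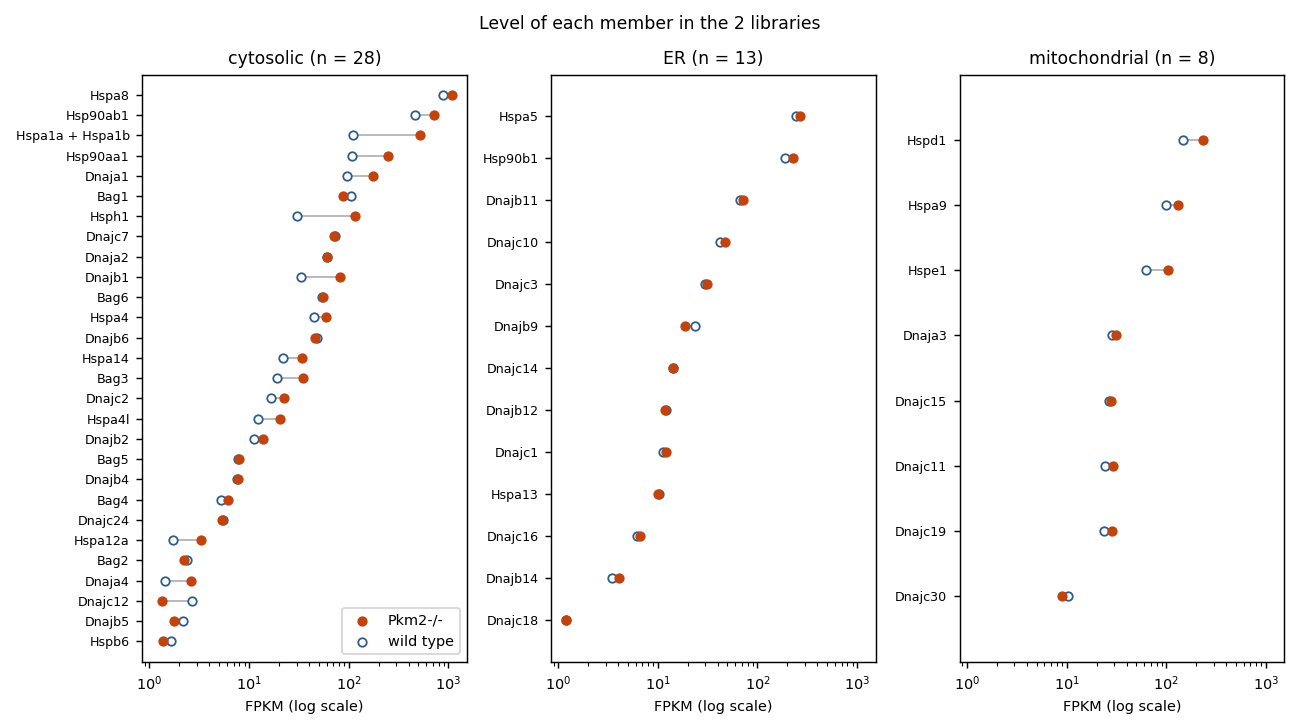
Level of each cytosolic, ER and mitochondrial member in FPKM on a log axis, with filled points for the Pkm2-/- library, open points for the wild type library and 1 panel per compartment, ordered by mean level. The gap between the points is widest for Hspa1a + Hspa1b and Hsph1, and most ER points lie on top of each other.

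The inducible Hsp70 genes Hspa1a and Hspa1b lie near each other on chromosome 17, Hspa1a at 34969190 to 34972156 and Hspa1b at 34956436 to 34959238 on GRCm38. They are known as the genes that cells switch on most strongly after heat. Of the 31-base words of Hspa1a, 63.8% also occur in Hspa1b, so the separate values are uncertain and the pair is given as a sum. That sum was 523 FPKM in the Pkm2-/- library and 110 FPKM in the wild type library, 4.74-fold higher (95% counting interval 4.61 to 4.87). Hspa1l, the neighbour known in mouse and human from the testis, was close to 0 in both, at 0.237 FPKM in the Pkm2-/- library and 0.184 FPKM in the wild type library.

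Hspa8 encodes the constitutive Hsp70 and was the most abundant member. It stood at 1092 FPKM in the Pkm2-/- library and 891 FPKM in the wild type library, 1.23-fold higher (1.21 to 1.24). This value is uncertain, because 59.4% of its 31-base words occur in other genes. One of these, the processed pseudogene Gm15459, was listed at 495 FPKM in the Pkm2-/- library and 74.4 FPKM in the wild type library. Added to Gm15459 and 2 lesser copies, a sum formed after the values had been seen, Hspa8 stood at 1601 FPKM in the Pkm2-/- library and 973 FPKM in the wild type library, which is 1.65-fold higher. How the authors' counting shared fragments between Hspa8 and its copies was not tested.

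The make-up of the cytosolic Hsp70 pool differed between the libraries. Among all cytosolic Hspa entries, which summed to 1732 FPKM in the Pkm2-/- library and 1083 FPKM in the wild type library, Hspa1a + Hspa1b held 30.2% in the Pkm2-/- library and 10.2% in the wild type library. Hspa8 held 63.0% in the Pkm2-/- library and 82.3% in the wild type library. These shares compare genes within a library and do not depend on how the libraries are scaled. With the Hspa8 copies counted in, the share of Hspa1a + Hspa1b was 23.3% in the Pkm2-/- library and 9.47% in the wild type library.

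**Figure D2:**
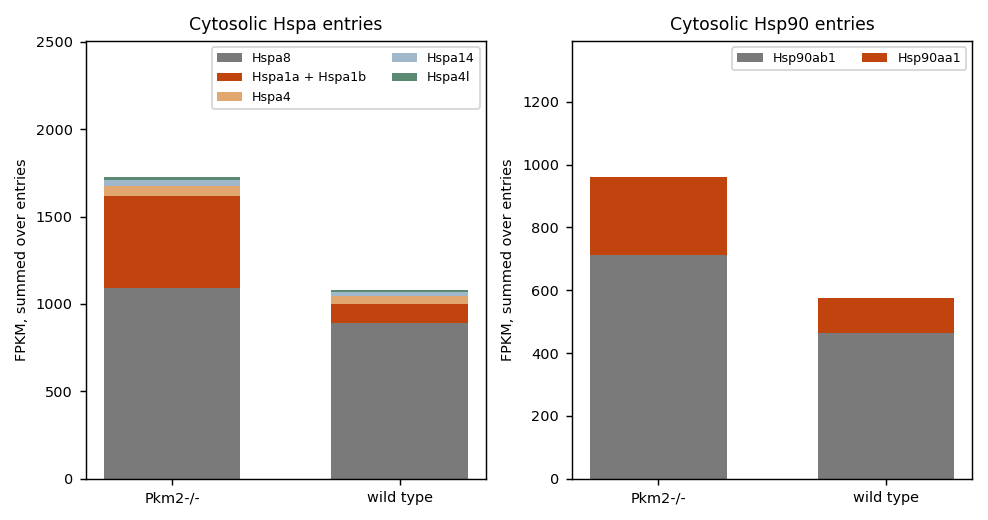
Summed FPKM of the cytosolic Hspa entries (left panel, bars stacked by gene, leaving out those under 5 FPKM in both libraries) and of the cytosolic Hsp90 genes (right panel), with the Pkm2-/- library left of the wild type library in each. The segment of Hspa1a + Hspa1b takes 30.2% of the Hspa total in the Pkm2-/- library and 10.2% in the wild type library.

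The Hsp110 genes, whose products exchange nucleotide on Hsp70, were higher too. Hsph1 stood at 115 FPKM in the Pkm2-/- library and 30.0 FPKM in the wild type library, 3.81-fold higher (3.65 to 3.98), and was the member closest to the inducible Hsp70 pair. Its relative Hspa4l was at 20.3 FPKM in the Pkm2-/- library and 12.4 FPKM in the wild type library, 1.63-fold higher (1.55 to 1.72), a 1.5-fold call that is lost with 5 added to each FPKM in place of 1. Hspa4, at 59.1 FPKM in the Pkm2-/- library and 44.9 FPKM in the wild type library, lay below the 1.5-fold threshold. In the wild type library Hspa4 was thus the most abundant of the 3, and in the Pkm2-/- library Hsph1 was.

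More distant Hsp70 relatives followed. Hspa14, which works at the ribosome with Dnajc2, was at 33.9 FPKM in the Pkm2-/- library and 21.7 FPKM in the wild type library, 1.56-fold higher (1.47 to 1.66), and its 1.5-fold call is lost with equal library medians or with 5 added. A further annotated gene of the same name overlaps Hspa14 and could share its reads. Its partner Dnajc2 was at 22.4 FPKM in the Pkm2-/- library and 16.8 FPKM in the wild type library. Hspa12a, a divergent Hsp70, was low in both, at 3.29 FPKM in the Pkm2-/- library and 1.74 FPKM in the wild type library, 1.89-fold apart (1.58 to 2.26). Its call is lost with equal library medians or with 5 added, but not with equal upper quartiles.

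Both cytosolic Hsp90 genes were higher in the Pkm2-/- library, the inducible one by more. Hsp90aa1, the inducible alpha form, stood at 248 FPKM in the Pkm2-/- library and 109 FPKM in the wild type library, 2.28-fold higher (2.21 to 2.34). Hsp90ab1, the constitutive beta form and the second most abundant member, stood at 714 FPKM in the Pkm2-/- library and 465 FPKM in the wild type library, 1.53-fold higher (1.51 to 1.56). On the log2(FPKM + 1) scale its ratio was 0.62. It was 0.53 once the Pkm2-/- values were scaled to equal library medians and 0.55 with equal upper quartiles, both under 1.5-fold. Hsp90aa1 made up 25.8% of the pair in the Pkm2-/- library and 19.0% in the wild type library. Of the words of Hsp90aa1, 62.9% occur in other genes, but its measured copy, Gm12346, stood at only 5.59 FPKM in the Pkm2-/- library and 2.65 FPKM in the wild type library.

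Among J-domain genes, Dnajb1 and Dnaja1 had the highest ratios. Dnajb1, the main stress-inducible J-protein of the cytosol, stood at 82.4 FPKM in the Pkm2-/- library and 33.4 FPKM in the wild type library, 2.47-fold higher (2.34 to 2.61). Dnaja1, an abundant partner of Hspa8, was at 173 FPKM in the Pkm2-/- library and 96.9 FPKM in the wild type library, 1.79-fold higher (1.75 to 1.83). Of 38 measured Dnaj members these were the 2 past 1.5-fold upward, a share near the 4.46% of all genes, and the median log2 ratio of all 38 was 0.04, against 0.06 for all genes. The close relative Dnaja4 was at 2.59 FPKM in the Pkm2-/- library and 1.44 FPKM in the wild type library, 1.80-fold apart on the plain scale but under the threshold on the log2(FPKM + 1) scale, which understates low genes.

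The other cytosolic J-proteins lay on both sides of 0. Dnajb2 was at 13.8 FPKM in the Pkm2-/- library and 11.2 FPKM in the wild type library. Dnaja2, a relative of Dnaja1, was at 60.7 FPKM in the Pkm2-/- library and 60.5 FPKM in the wild type library. Dnajc7, which carries repeats that bind both Hsp70 and Hsp90, was at 71.0 FPKM in the Pkm2-/- library and 73.3 FPKM in the wild type library. Dnajb6, a suppressor of protein aggregation, was at 46.0 FPKM in the Pkm2-/- library and 47.9 FPKM in the wild type library. Dnajc12, a co-chaperone of the hydroxylases that act on aromatic amino acids, was the 1 member past 1.5-fold downward. It stood at 1.33 FPKM in the Pkm2-/- library and 2.66 FPKM in the wild type library, on about 81 and 150 fragments.

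Bag proteins release clients from Hsp70, and 1 of the 6 Bag genes stood apart. Bag3, which pairs Hsp70 with small heat shock proteins and selective autophagy, was at 34.8 FPKM in the Pkm2-/- library and 19.0 FPKM in the wild type library, 1.83-fold higher (1.69 to 1.99). Bag1, which links Hsp70 to the proteasome and was the most abundant of the family, was at 88.0 FPKM in the Pkm2-/- library and 105 FPKM in the wild type library. Bag6, which guards hydrophobic segments of new membrane proteins, was at 55.8 FPKM in the Pkm2-/- library and 53.8 FPKM in the wild type library. Bag2, Bag4 and Bag5 lay between 2.23 and 7.94 FPKM in the Pkm2-/- library, each within 1.5-fold of its wild type value.

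Small heat shock proteins were scarce in both libraries. Hspb1, the small heat shock protein known as Hsp25 in mouse, was at 0.398 FPKM in the Pkm2-/- library and 0.867 FPKM in the wild type library, on about 7 and 15 fragments, so its direction was not resolved at this depth. More than 50% of its words also occur in a pseudogene. Hspb8, the partner of Bag3, was at 0.577 FPKM in the Pkm2-/- library and 0.716 FPKM in the wild type library. Of 6 listed Hspb genes only Hspb6 and Hspb11 were measured. Hspb6 was at 1.38 FPKM in the Pkm2-/- library and 1.65 FPKM in the wild type library, and Hspb11, better known as a part of cilia, at 7.90 and 8.21 FPKM.

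The heat shock factors themselves were close. Hsf1, the main heat-responsive factor, was at 12.9 FPKM in the Pkm2-/- library and 11.8 FPKM in the wild type library, a fold of 1.10 whose counting interval (0.991 to 1.22) spans 1. Hsf2 was at 3.10 FPKM in the Pkm2-/- library and 2.65 FPKM in the wild type library, with an interval that also spans 1. Hsf3, Hsf4 and Hsf5 were all under 0.5 FPKM in both. Hsf1 is known to be controlled mainly at the protein level, which these RNA values do not cover.

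None of the 13 ER members was 1.5-fold or more apart in either direction, against 4.46% of all genes upward and 5.29% downward, so a count of 0 among 13 is near the background. Their median log2 ratio was 0.08, against 0.06 for all genes. Hspa5 (BiP), the Hsp70 of the ER, stood at 265 FPKM in the Pkm2-/- library and 245 FPKM in the wild type library, 1.08-fold higher (1.06 to 1.10). Hsp90b1 (Grp94), the ER Hsp90, had the highest ratio of the set, at 227 FPKM in the Pkm2-/- library and 188 FPKM in the wild type library. Dnajb9, a J-protein induced by the unfolded protein response, had the lowest, at 18.6 FPKM in the Pkm2-/- library and 23.8 FPKM in the wild type library.

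The other ER members lay between these. Dnajb11, which brings clients to BiP, was at 71.7 FPKM in the Pkm2-/- library and 67.0 FPKM in the wild type library. Dnajc3, which works with BiP in the ER lumen, was at 31.2 FPKM in the Pkm2-/- library and 30.0 FPKM in the wild type library, and Dnajc10, an ER disulfide reductase, at 47.2 and 41.7 FPKM. Hspa13, a further Hsp70 relative, was at 10.1 FPKM in the Pkm2-/- library and 10.2 FPKM in the wild type library. The summed FPKM of the 13 was 721 in the Pkm2-/- library and 654 in the wild type library, a ratio of 1.10. That ratio was 1.56 for the 28 cytosolic members and 1.41 for the 8 mitochondrial ones. Such sums follow the most abundant genes. The median log2 ratios were 0.08 for the ER, 0.28 for the cytosolic and 0.25 for the mitochondrial members.

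Mitochondrial members had log2 ratios from -0.19 to 0.72. The 2 chaperonin genes were higher, Hspd1 (Hsp60) at 234 FPKM in the Pkm2-/- library and 146 FPKM in the wild type library, 1.60-fold (1.55 to 1.65). Hspe1 (Hsp10), its lid, was at 104 FPKM in the Pkm2-/- library and 62.9 FPKM in the wild type library, 1.66-fold (1.54 to 1.78). The ratio of Hspd1 to Hspe1 levels was close, 2.24 in the Pkm2-/- library and 2.33 in the wild type library. The genes lie head to head on chromosome 1, with Hspd1 at 55077835 to 55088243 and Hspe1 at 55088132 to 55091307 on GRCm38, and their first exons overlap. Their values are thus not independent, and 55.8% of the words of Hspd1 occur in other genes, so its value is uncertain too. The copy that shares most, Hspd1-ps3 with 51.8% of the words, stood at 0.361 FPKM in the Pkm2-/- library and 0.278 FPKM in the wild type library.

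Hspa9 (mortalin), the mitochondrial Hsp70, was at 131 FPKM in the Pkm2-/- library and 99.7 FPKM in the wild type library, 1.31-fold higher (1.27 to 1.36). The J-proteins of the organelle were closer. Dnajc19 was at 28.7 FPKM in the Pkm2-/- library and 23.9 FPKM in the wild type library, 1.20-fold higher. Dnajc11 was at 29.0 and 24.4 FPKM, 1.19-fold higher. Dnaja3, partner of mortalin, was at 31.5 FPKM in the Pkm2-/- library and 28.7 FPKM in the wild type library, Dnajc15, of the protein import motor, at 28.2 and 26.4 FPKM, and Dnajc30 at 9.03 and 10.4 FPKM. Over the 8 members the median log2 ratio was 0.25, with 7 above 0, against 58.8% of all genes above 0.

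**Figure D3:**
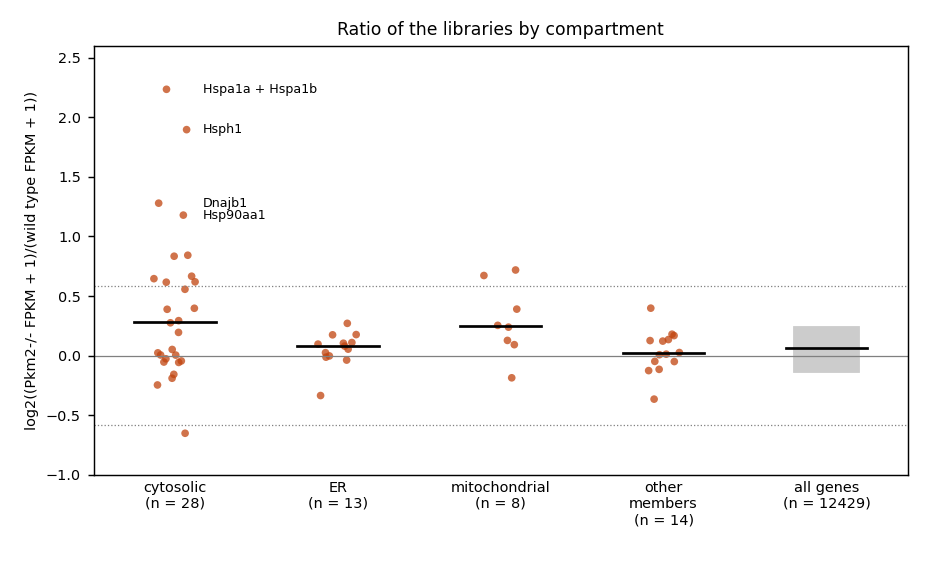
Log2 ratio of Pkm2-/- over wild type, with 1 added to each FPKM, for each member (points) by compartment, with the median of each set as a bar, and for all genes the median with a box from the first to the third quartile. Dotted lines mark 1.5-fold. The 4 labelled members past 2-fold are cytosolic, and the 13 ER members lie between -0.34 and 0.27.

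None of the 14 members outside these compartments passed 1.5-fold on the log2(FPKM + 1) scale. With 4.46% of all genes past it upward and 5.29% downward, none among 14 is near the background. Dnajc9, a histone chaperone of the nucleus, had the highest ratio among these 14 members, at 13.8 FPKM in the Pkm2-/- library and 10.3 FPKM in the wild type library. Dnajc5, the cysteine string protein of vesicles, was at 30.4 FPKM in the Pkm2-/- library and 30.2 FPKM in the wild type library, and Dnajc22, of no assigned compartment, at 27.9 and 28.8 FPKM. Dnajc28 had the lowest ratio, at 1.29 FPKM in the Pkm2-/- library and 1.95 FPKM in the wild type library, 1.51-fold lower on the plain scale (1.14 to 1.99), on about 92 and 128 fragments.

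The threshold of 1 FPKM left out 16 listed entries. Just inside it lay Dnajc18 with a mean of 1.20, Hspb6 with 1.52 and Dnajc28 with 1.62 FPKM, and just outside it Dnajb3 with 0.770, Dnajb7 with 0.661 and Hspb8 with 0.646 FPKM. None of the 16 exceeded 0.773 FPKM in the Pkm2-/- library or 0.912 FPKM in the wild type library. Hsf2bp, a binding partner of Hsf2 known from meiosis, had the upper of these Pkm2-/- values against 0.164 FPKM in the wild type library, on about 49 and 10 fragments. Hspa12b was listed for the Pkm2-/- library alone and Dnajc5b for the wild type library alone.

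The cytosolic set was itself divided. A list of 22 known Hsf1 targets held 9 of the 28 cytosolic entries, and 8 of these 9 were higher by 1.5-fold or more, their median log2 ratio being 0.84. The other 19 had a median of 0.01, and of these Hspa12a and Hspa14 passed 1.5-fold upward and Dnajc12 downward. The ratio of summed FPKM was 1.04 for these 19, against 1.10 for the ER members. Over the whole list, 17 entries were measured, 12 of them passed 1.5-fold upward, against 4.46% of all genes, and the median was 0.72. Of the 17, 11 are members already counted above. The list was put together with earlier results of these data known.

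Partners that the symbol rule does not reach were compared by lists of known partners. Of 19 measured partners of Hsp70 and Hsp90 in the cytosol, 2 passed 1.5-fold upward and none downward, against 4.46% and 5.29% of all genes. Those 2, Stip1 and Chordc1, were already counted among the Hsf1 targets above, as were Ahsa1 and Fkbp4. The median log2 ratio of the 19 was 0.14. Stip1, which bridges Hsp70 and Hsp90, was at 62.2 FPKM in the Pkm2-/- library and 32.6 FPKM in the wild type library, 1.91-fold higher. Chordc1, an Hsp90 co-chaperone, was at 40.6 FPKM in the Pkm2-/- library and 22.3 FPKM in the wild type library, 1.82-fold higher. Fkbp4, an Hsp90-binding immunophilin and the most abundant of the list, was at 164 FPKM in the Pkm2-/- library and 123 FPKM in the wild type library. Ptges3 (p23), which steadies the closed form of Hsp90, was next at 86.7 FPKM in the Pkm2-/- library and 61.9 FPKM in the wild type library.

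The cytosolic chaperonin CCT, which folds actin and tubulin, was higher in all 8 subunit genes without any reaching 1.5-fold. Of all genes, 58.8% had log2 ratios above 0 and 4.46% were higher by 1.5-fold or more. The log2 ratios of the CCT genes ran from 0.16 for Cct2 to 0.47 for Cct3, with a median of 0.32. Cct3 was at 109 FPKM in the Pkm2-/- library and 78.1 FPKM in the wild type library, and Cct2, with the highest mean over both libraries, at 112 and 101 FPKM. With equal library medians the CCT median was 0.24. The 6 prefoldin genes, which hand clients to CCT, had a median of 0.24, with Pfdn5 at 60.4 FPKM in the Pkm2-/- library and 65.3 FPKM in the wild type library and Pfdn6 at 37.8 and 34.9 FPKM.

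Partners in the ER and the mitochondrion held no gene past 1.5-fold, against 4.46% of all genes upward and 5.29% downward. In lists of 17 and 14 genes, such counts are near the background. Of 17 measured ER folding genes none was 1.5-fold apart, and their median was 0.02, with the calreticulin gene Calr at 352 FPKM in the Pkm2-/- library and 340 FPKM in the wild type library and the disulfide isomerase Pdia3 at 365 and 294 FPKM. Of 14 mitochondrial folding genes none was 1.5-fold apart either, and their median was 0.13. Trap1, the mitochondrial Hsp90, was at 61.1 FPKM in the Pkm2-/- library and 44.1 FPKM in the wild type library, and the protease subunit gene Afg3l2 at 45.4 and 43.2 FPKM.

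**Figure D4:**
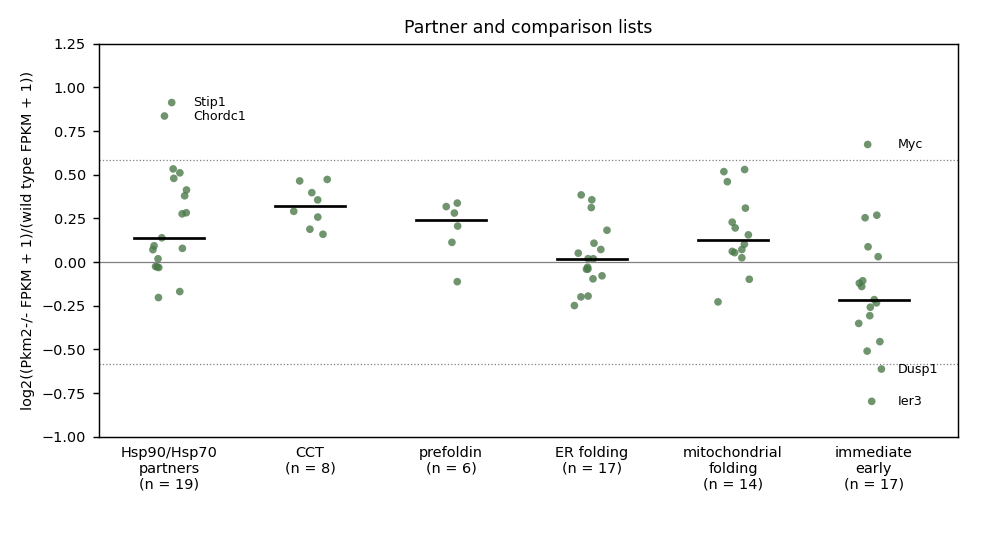
Log2 ratio of Pkm2-/- over wild type, with 1 added to each FPKM, for measured genes of the partner lists and of the immediate early list (points), with the median of each as a bar and dotted lines at 1.5-fold. Stip1 and Chordc1 lie above the upper line, all 8 CCT points lie above 0, and 12 of the 17 immediate early points lie below 0.

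Immediate early genes, which cells switch on quickly after many stimuli, were listed for comparison. Of 17 measured, 5 had log2 ratios above 0 and 12 below, while 58.8% of all genes lay above 0. The median of the 17 was -0.21. Past 1.5-fold were 1 upward and 2 downward, against 4.46% and 5.29% of all genes. The most abundant, Klf4, was at 96.0 FPKM in the Pkm2-/- library and 112 FPKM in the wild type library, and Fos at 57.3 and 53.9 FPKM. Myc was 1.64-fold higher, at 21.3 FPKM in the Pkm2-/- library and 13.01 FPKM in the wild type library. Ier3, at 4.94 FPKM in the Pkm2-/- library and 9.33 FPKM in the wild type library, and Dusp1, at 4.997 and 8.17 FPKM, were those downward.

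Member promoters, shown at the start or not, were then set beside the ratios. RefSeq promoters were found for 50 of the 64 measured member symbols, 67 promoters in all. Hsp90aa1, Hsp90ab1, Hspa8 and Hspa9 were among those without one, so no promoter value here covers them. In the shares, a gene with several start sites counts once for each. Hsph1 and Dnajb6 thus count with 2 promoters each, and Hspa1a and Hspa1b count apart. GAANNTTC or TTCNNGAA occurred in 20.9% of the 67 promoters, in 29.7% of the 37 cytosolic ones and in 8.33% of the 12 ER ones. The share was 15.1% of all 32851 promoters and 11.8% of the 11516 promoters of measured genes. A longer form, with the repeats GAA, TTC and GAA or TTC, GAA and TTC in turn and 2 bases between neighbours, contains the shorter ones and was looked up after the values had been seen. It occurred in 8.96% of member promoters and 0.603% of all promoters. It was found for Hsph1, Dnajb6, Hspd1 and Hspe1, the last 2 through the same bases of their shared promoter.

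Members with a match of the shorter forms had a median log2 ratio of 0.67 over 11 genes, counting the Hspa1 pair once, and 6 of the 11 passed 1.5-fold upward. Members without a match had a median of 0.09 over 38 genes, 4 of which passed it. Of all genes, 4.46% passed it. Hspd1 and Hspe1 both count among the 11 and the 6, although they match through the same bases. Genes outside the members were not compared by match, so whether a match goes with the ratio in general was not tested. A match did not go with a ratio gene by gene. Dnajb6 holds the longer form and had a log2 ratio of -0.06, while Dnajb1 holds no match in this window and had 1.28. The ER stress element was found in 3 of the 12 ER promoters, those of Hspa5, Hsp90b1 and Dnajc3, whose log2 ratios ran from 0.05 to 0.27, against 0.119% of all promoters.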

How the data were processed

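Messenger RNA of colon epithelial cells was sequenced in 1 Pkm2-/- and 1 wild type library, and 1 FPKM value per gene was deposited for each. The submitters' processing notes name TopHat2 2.1.1 with Bowtie2 2.2.9, Cuffdiff in versions 2.2.1 and 1.3.0, Cufflinks 2.2.1, and the build mm8. The FPKM files as the authors deposited them carry no header, so the unit was taken from these tools and the values. The loci of all 80 matched symbols overlapped the same genes of GENCODE M21, so coordinates are on GRCm38 and not on the build named. Only values above 0 are listed, and a gene listed in 1 file was set to 0 in the other. Because each value is relative to its library's total, a large change in abundant transcripts shifts all others. Strand use is not given in the sources used here.

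Values of a symbol with several gene IDs were summed. Ratios were log2((Pkm2-/- FPKM + 1)/(wild type FPKM + 1)), counted among genes averaging 1 FPKM or more, and plain ratios are given as folds. With 1 library per genotype no test was made. The worth of 1 fragment was the median of FPKM times kb between 0.03 and 0.08 in genes with 1 transcript over 1.5 kb, 0.0496 in the Pkm2-/- library from 385 genes and 0.0536 in the wild type library from 377. Intervals use this worth and the longest annotated transcript, and the steps were tested on simulated data. Shared 31-base words were counted over GENCODE transcripts. Members to name were those at least 1.5-fold apart, the 5 most abundant of each of the 3 compartments, every Hspa, Hsph, Hsp90, Hspd, Hspe and Hsf member and those next to the threshold, with others given as members of their family. The members, compartments and lists were chosen with earlier results of these data known. Python 3.11.15, numpy 2.4.6, pandas 2.3.3, scipy 1.17.1 and matplotlib 3.10.9 were used.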

Additional observations from a re-analysis of the deposited data

Results flagged for a closer look

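Gm15459, a processed pseudogene of Hspa8 on chromosome 5 (5781615 to 5783555 on GRCm38), is no member and enters no count, yet it carried a signal far above its wild type level. It was listed at 495 FPKM in the Pkm2-/- library and 74.4 FPKM in the wild type library, 6.65-fold higher, while Hspa8 itself was 1.23-fold higher. Of the 31-base words of Gm15459, 84.7% occur in Hspa8. The other measured copies of members stayed nearer to their parents, with Gm15542 1.67-fold higher beside Dnaja1 at 1.79-fold, Gm12346 2.11-fold beside Hsp90aa1 at 2.28-fold, and Gm6395 1.04-fold beside Dnajb6 at 0.960. The other Hspa8 copies Gm8355 and Gm6210 were 1.77-fold and 2.30-fold higher.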

How the results depend on the processing

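No paired analysis was possible because each genotype has 1 library, and none could be left out for the same reason. Every comparison rests on these libraries alone, and depth limits the 16 members under 1 FPKM, all on fewer than 50 fragments in each library. Pseudocounts of 0.1 and 5, scaling to equal medians or upper quartiles, no filter or one at a mean of 5 FPKM, both Hspa1 genes apart, and means in place of medians were tried. The cause of the differences between settings was not tested.

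Scaling multiplied the Pkm2-/- values by 0.943 for equal medians, which moved the median log2 ratio of all genes by -0.08, and by 0.956 for equal upper quartiles. With equal medians and with equal upper quartiles, the log2 ratio was -1.78 and -1.76 for Pkm (-1.69 as reported), 2.15 and 2.17 for Hspa1a + Hspa1b (2.23), and the median 0.24 and 0.26 for CCT (0.32) and 0.63 and 0.65 for the Hsf1 targets (0.72). The ER folding median was -0.064 with equal medians (0.02). The cytosolic median was 0.051 without the filter and 0.41 as a mean (0.28), and means were 0.24 for all members (0.11), 0.24 for cytosolic partners (0.14) and 0.83 for the Hsf1 targets, whose median was 0.67 without the filter. With a pseudocount of 5 or a mean of at least 5 FPKM, 0 members were at least 1.5-fold lower (1). The 2-fold count was 4 under each setting other than the separate Hspa1 genes, which made it 5. The 1.5-fold count upward ran from 9 to 13 (12). Of 28 named members besides the Hspa1 sum, none past 1.5-fold changed direction. Adding the copies of Hspa8, chosen after seeing the data, made 13 members at least 1.5-fold higher.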
